A study of Mus musculus with 10 samples.

Results

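The Sprouty and Spred genes encode a pair of related protein families that restrain signalling from receptor tyrosine kinases through RAS to ERK. The 6 genes *Spry1*, *Spry2*, *Spry4*, *Spred1*, *Spred2* and *Spred3* were taken by gene name from a table of 54532 genes measured in 10 mouse hearts. Every heart carried the same germline genotype, heterozygous for the Rit1 M90I variant, which was made from a conditional allele with a CMV-Cre deleter line. The vehicle group (n = 5) and the trametinib group (n = 5, 1 mg/kg once a day) were dosed over 20 weeks beginning at 4 weeks of age, and tissue was collected 2 hours after the last dose. Trametinib is an inhibitor of the kinases MEK1 and MEK2, which activate ERK. No heart without the variant was analysed here, so the comparison is between treated and control hearts of a single genotype.

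ERK signalling induces its own inhibitors, and transcripts of Sprouty genes are commonly read as an output of the pathway. Sprouty proteins are phosphorylated after receptor activation and limit the steps that lead from the receptor to RAS and RAF. Spred proteins bind neurofibromin, the RAS GTPase-activating protein encoded by *Nf1*, and bring it to the membrane, and loss of SPRED1 in humans causes Legius syndrome. RIT1 is itself a RAS-family GTPase, and variants of it that escape degradation cause Noonan syndrome, in which the heart muscle is often thickened.

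The sequences just before the start sites of the most abundant Sprouty gene, its closest neighbour in level and the most abundant Spred gene are shown to set side by side the promoter-proximal sequence of the members that were most abundant in these hearts. Each is 250 bases long and ends at the RefSeq start site, from RefSeq on GRCm38.p6. Windows were matched for 5 of the 6 members, and that of *Spry4* was not used here. The RefSeq start lay 303 bases from the deposited start of *Spred1*, 67 from that of *Spred2* and 1764 from that of *Spred3*. The *Spred3* window thus lies inside the gene as deposited, and the *Spred2* window partly so. Capitals mark a GC box (GGGCGG on either strand) or a CCAAT box (CCAAT on either strand). The windows lie at chr3:37639697-37639946 (plus strand), chr14:105896820-105897069 (minus strand) and chr2:117120821-117121070 (plus strand).
Spry1: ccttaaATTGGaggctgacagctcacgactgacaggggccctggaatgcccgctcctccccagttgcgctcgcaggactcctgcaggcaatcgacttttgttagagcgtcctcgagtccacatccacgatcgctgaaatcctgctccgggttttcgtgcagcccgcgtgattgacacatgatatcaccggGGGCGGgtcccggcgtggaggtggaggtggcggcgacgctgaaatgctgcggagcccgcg
Spry2: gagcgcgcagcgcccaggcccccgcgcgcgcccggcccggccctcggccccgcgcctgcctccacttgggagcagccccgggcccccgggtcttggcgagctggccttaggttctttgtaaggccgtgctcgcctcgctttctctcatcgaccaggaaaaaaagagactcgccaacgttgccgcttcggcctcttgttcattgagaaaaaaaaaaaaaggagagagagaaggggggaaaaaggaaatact
Spred1: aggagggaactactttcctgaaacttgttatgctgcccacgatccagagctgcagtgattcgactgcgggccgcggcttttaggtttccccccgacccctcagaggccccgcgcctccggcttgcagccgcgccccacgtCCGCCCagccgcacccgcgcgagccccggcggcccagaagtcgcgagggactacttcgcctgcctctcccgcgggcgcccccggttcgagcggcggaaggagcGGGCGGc
*Spry1* and *Spry2* had equal base composition, 62.4% G or C with 23 CpG dinucleotides, and *Spred1* had 70.8% with 31, against medians of 52.4% and 6 over 32851 windows of the same length. A GC box was found in 32.7% of all windows and in those of *Spry1*, *Spred1*, *Spred2* and *Spred3*. The *Spry1* window also held a CCAAT box, found in 33.8% of all windows. Both strands of the 5 windows were also searched for an extended ETS site (CCGGAAG, 6.91% of all windows), an AP-1 site (TGANTCA, 6.75%) and a cAMP response element (TGACGTCA, 1.55%). An E-box (CACGTG, 6.02%), a TATA box (TATAAA, 12.4%) and a CArG box (1.47%) were searched as well. None of these occurred in the forms given. Shorter forms, such as the bare GGAA of ETS sites, were not searched. The *Spry2* window held no match to any of the 8 motifs in the forms searched.

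The Sprouty genes were compact in the annotation, each with its whole coding sequence in 1 exon, and the Spred genes were split over several. In GRCm38 coordinates, *Spry1* lies on chr3:37639947-37644598 (plus strand) and encodes 313 residues. *Spry2* lies on chr14:105891947-105896819 (minus strand, 315 residues) and *Spry4* on chr18:38586268-38601268 (minus strand, 300 residues). *Spred1* spans chr2:117121374-117182279 (plus strand, 7 coding exons, 444 residues), *Spred2* chr11:19924375-20024026 (plus strand, 6 coding exons, 410 residues) and *Spred3* chr7:29158829-29170411 (minus strand, 5 coding exons, 408 residues). Genes on the opposite strand overlapped 3 of the 6, and whether counting used strand is not given in the sources used here. *Gm42922*, at *Spry1*, had at most 9 fragments in a heart, *Ggn*, at *Spred3*, had at most 16, and *Gm27369* and *Gm27804*, at *Spry4*, were listed at 0 in all hearts.

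Levels were deposited as FPKM, the fragments of a transcript scaled by its length and by a divisor for each heart. Levels of different genes can thus be set side by side, as far as the gene lengths hold. Gene-assigned fragments numbered 13647167 to 18474002 per heart. Of 6 cardiomyocyte markers (*Myh6*, *Tnnt2*, *Actc1*, *Ryr2*, *Tnni3* and *Mybpc3*) none was at 0, and their summed level was 10455 to 13239 FPKM in vehicle and 10086 to 13879 FPKM in trametinib hearts. Endothelial, fibroblast, smooth muscle and macrophage markers were also present, and in such bulk tissue fewer cells of a type and less RNA per cell cannot be told apart. *Xist* was at 5.16 to 6.85 FPKM in the trametinib hearts and at most 0.00662 FPKM in the vehicle hearts, while the Y-linked *Ddx3y* was at 10.3 to 12.2 FPKM with vehicle and at 0 in each trametinib heart. Mice of both sexes entered the trial and the labels give no sex. As the split by these transcripts and the split by treatment were the same, treatment and sex cannot be told apart in any difference below.

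Among the members, *Spry1* and *Spry2* were the most abundant, *Spred1* and *Spred2* were intermediate, *Spry4* was low and *Spred3* was barely detected. Over all 10 hearts the mean level was 7.13 ± 1.39 FPKM for *Spry1*, 6.49 ± 0.784 for *Spry2*, 4.07 ± 0.593 for *Spred1*, 4.02 ± 1.12 for *Spred2*, 2.05 ± 0.753 for *Spry4* and 0.142 ± 0.0971 for *Spred3* (SD, n = 10). Neighbours in this order were compared within hearts by an exact sign-flip permutation test of their log2 ratio, for which 0.00195 is the smallest possible p. *Spry1* exceeded *Spry2* in 7 of 10 hearts, and the pair did not differ beyond the spread (p = 0.211, exact permutation). *Spry2* exceeded *Spred1*, *Spred2* exceeded *Spry4* and *Spry4* exceeded *Spred3* in 10 of 10 hearts each (exact permutation p = 0.00195, adjusted p = 0.00326 over 5 pairs of neighbours). The test takes the deposited gene lengths as given and does not cover error in them. In fragments *Spred1* (348 to 520 a heart, 6784 bases) stood above *Spry2* (163 to 241 a heart, 2087 bases). *Spred1* and *Spred2* stood at nearly the same level (5 of 10 hearts in each order, exact permutation p = 0.533), with *Spred1* above *Spred2* in 1 of 5 vehicle and 4 of 5 trametinib hearts. This change of order between the groups was itself no larger than the spread (difference in log2 ratio 0.24, exact permutation p = 0.183).

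**Figure D1:**
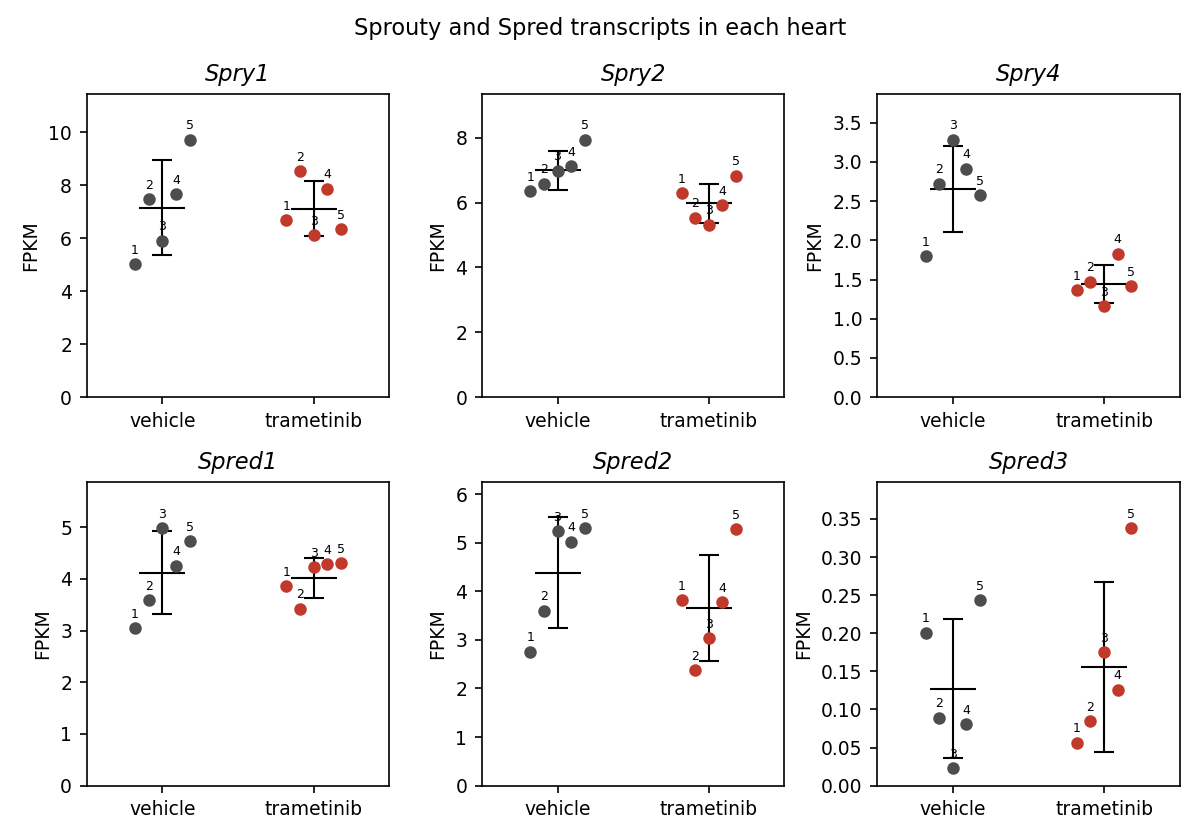
FPKM of each Sprouty and Spred gene (vertical axes, each from 0) in vehicle (grey) and trametinib (red) hearts, with replicate numbers above the points and black bars for the mean and SD of 5 hearts. *Spry4* was at 1.16 to 1.83 FPKM in the trametinib hearts. Vehicle heart 1 (1.80 FPKM) was the only vehicle heart in that range, and the others were at 2.58 to 3.28 FPKM.

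*Spry4*, an inhibitor of ERK activation downstream of several growth factor receptors, showed the largest difference between the groups among the members tested. It was at 1.80, 2.72, 3.28, 2.91 and 2.58 FPKM in vehicle hearts 1 to 5 and at 1.36, 1.47, 1.16, 1.83 and 1.42 FPKM in trametinib hearts 1 to 5. Vehicle heart 1 and trametinib heart 4 met at about the same level, and otherwise the groups were apart, with 4 of 5 vehicle hearts above all trametinib hearts. The mean was 2.66 ± 0.547 FPKM with vehicle and 1.45 ± 0.244 FPKM with trametinib (SD, n = 5 each), 45.6% lower. These values came from 78 to 214 fragments a heart. On the scale of log2(FPKM + 0.1), which understates the change of low genes, the difference was −0.82 (SE 0.17, 95% interval −1.19 to −0.46). Fitted with limma over the 12602 genes that averaged 0.5 FPKM or more, *Spry4* ranked 24 by unadjusted p (0.000376) and did not pass the threshold of 0.05 after adjustment over all genes (limma adjusted p = 0.195). A two-sided exact permutation test of this single gene gave p = 0.0159, where 0.00794 is the smallest possible. Without vehicle heart 1 the difference was −0.95 and passed over all genes (limma adjusted p = 0.0434), while its adjusted p ranged up to 0.464 over the other alternatives.

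*Spry2*, the most studied Sprouty and a partner of the ubiquitin ligase CBL, was slightly lower with trametinib. Its level was 6.35, 6.58, 6.98, 7.12 and 7.93 FPKM in vehicle hearts 1 to 5 and 6.29, 5.53, 5.32, 5.92 and 6.83 FPKM in trametinib hearts 1 to 5. All trametinib hearts but heart 5 were below every vehicle heart, though heart 1 only by a small margin. The means were 6.99 ± 0.610 and 5.98 ± 0.605 FPKM (SD, n = 5 each), 14.5% lower, with a log2 difference of −0.22 (SE 0.098, 95% interval −0.44 to −0.0099). This difference had an unadjusted p of 0.0418 and did not pass over all genes (limma adjusted p = 0.630). The exact permutation test gave p = 0.0317, and this p lay between 0.0556 and 0.0635 when any of 6 hearts (vehicle 3, 4 or 5, or trametinib 2, 3 or 4) was left out.

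*Spry1*, which in mice is needed to limit branching of the developing kidney, differed little between the groups. It was at 5.03, 7.47, 5.91, 7.66 and 9.72 FPKM in vehicle hearts 1 to 5 and at 6.69, 8.52, 6.12, 7.87 and 6.35 FPKM in trametinib hearts 1 to 5. The trametinib values all lay inside the range of the vehicle values. The means were 7.16 ± 1.80 and 7.11 ± 1.04 FPKM (SD, n = 5 each), and the log2 difference was 0.01 (SE 0.17, limma adjusted p = 0.988; exact permutation p = 0.960). Its 95% interval, −0.35 to 0.38, excluded a difference as large as that of *Spry4*, and its sign was negative on the linear scale, with array weights and when vehicle heart 1 or 3 or trametinib heart 2 or 4 was left out.

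The Spred genes showed no difference that exceeded the spread between hearts. *Spred1* was at 3.05, 3.59, 4.98, 4.26 and 4.73 FPKM in vehicle hearts 1 to 5 and at 3.86, 3.42, 4.23, 4.29 and 4.31 FPKM in trametinib hearts 1 to 5. The trametinib hearts again lay inside the vehicle range. The means were 4.12 ± 0.799 and 4.02 ± 0.381 FPKM (SD, n = 5 each), with a log2 difference of −0.02 (SE 0.14, 95% interval −0.32 to 0.28, limma adjusted p = 0.982, exact permutation p = 0.913). The sign of this difference turned positive on a TPM scale, with array weights and when vehicle heart 3 or 5 or trametinib heart 2 was left out.

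*Spred2*, which like *Spred1* carries the EVH1 domain that binds neurofibromin, varied most between hearts of the same group among the 5 members tested. It was at 2.75, 3.60, 5.24, 5.02 and 5.30 FPKM in vehicle hearts 1 to 5 and at 3.81, 2.37, 3.04, 3.78 and 5.28 FPKM in trametinib hearts 1 to 5. High and low hearts occurred in both groups. The means were 4.38 ± 1.14 and 3.66 ± 1.08 FPKM (SD, n = 5 each), with a log2 difference of −0.26 (SE 0.23, 95% interval −0.76 to 0.24, limma adjusted p = 0.820, exact permutation p = 0.349). The coefficient of variation was 26.1% with vehicle and 29.7% with trametinib, against 8.72% and 10.1% for *Spry2*.

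*Spred3* was the only member under the filter of 0.5 FPKM, so limma was not applied to it. It had 2 to 33 fragments in a heart, and in vehicle heart 3 its 2 fragments were under the limit of 3 fragments that a count of 0 allows for counting error. It was at 0.201, 0.0892, 0.0226, 0.0809 and 0.243 FPKM in vehicle hearts 1 to 5 and at 0.0563, 0.0843, 0.175, 0.126 and 0.338 FPKM in trametinib hearts 1 to 5. The groups overlapped throughout (0.127 ± 0.0913 and 0.156 ± 0.111 FPKM, SD, n = 5 each, exact permutation p = 0.675), and a difference was not detectable at this depth.

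Read as a group, 4 of the 5 members tested were lower and 1 was higher with trametinib, with a median log2 difference of −0.22, against 0.01 over all 12602 genes, of which 47.9% were lower. None of the 5 passed over all genes, where 0.0794% of genes did (limma, Benjamini-Hochberg adjustment). At an unadjusted p under 0.05, 2 of the 5 were lower (*Spry2* and *Spry4*), against 3.94% of all genes, and 0 were higher. *Spry2* left this count, with limma's unadjusted p at 0.230 on a TPM scale, 0.0810 with voom, 0.0593 with the replicate block and 0.0504 without a trend, and likewise without any of the 6 hearts named for its permutation test. No member had groups that did not overlap in the lower direction, as 0.849% of all genes had. The members were chosen with earlier results of these data known, so these shares are no test of the group. Vehicle heart 1 gave the lowest vehicle value of all 5 members tested, and it gave the lowest vehicle value of 23.5% of all genes.

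**Figure D2:**
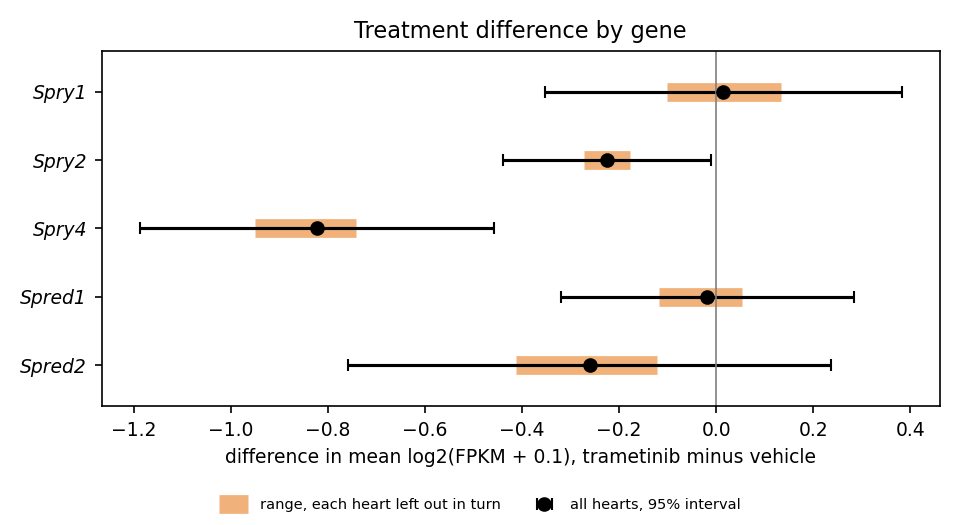
Difference between the groups in mean log2(FPKM + 0.1), trametinib minus vehicle, for the 5 members past the filter (points, with limma's 95% interval) and the range of this difference when each heart was left out in turn (orange bars). The interval of *Spry4* (−1.19 to −0.46) lay farthest from 0, that of *Spry2* ended at −0.0099, and the other intervals spanned 0.

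Because a ratio within a heart does not depend on how that heart was scaled, the members were also compared with each other. *Spry4* made up 12.7 to 20.3% of the summed Sprouty FPKM in vehicle hearts (mean 15.9%) and 9.20 to 11.7% in trametinib hearts (mean 9.92%), and the groups did not overlap. The ratio of *Spry4* to *Spry1* was 0.358, 0.364, 0.556, 0.380 and 0.265 in vehicle hearts 1 to 5 and 0.204, 0.173, 0.189, 0.232 and 0.223 in trametinib hearts 1 to 5. Here vehicle heart 1 stood among the other vehicle hearts. The ratio of *Spry4* to *Spred1* was 0.591, 0.758, 0.659, 0.684 and 0.545 in vehicle hearts 1 to 5 and 0.352, 0.431, 0.274, 0.427 and 0.329 in trametinib hearts 1 to 5, again without overlap. With *Spry2* or *Spred2* as the denominator the groups overlapped. For *Spry2*, vehicle heart 1 had the lowest vehicle ratio (0.284), below that of trametinib heart 4 (0.309). The summed Sprouty level was 16.8 ± 2.55 FPKM with vehicle and 14.5 ± 1.22 with trametinib, and the summed Spred level 8.63 ± 1.91 and 7.83 ± 1.46 FPKM (SD, n = 5 each), with overlapping groups in both families.

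All 15 pairs of members were tested for a group difference in their log2 ratio by exact permutation, with adjustment over the 15 pairs. The log2 ratio of *Spry1* to *Spry4* was 1.39 ± 0.37 with vehicle and 2.22 ± 0.16 with trametinib (SD, n = 5 each), a difference of 0.84 (exact permutation p = 0.00794, the smallest possible, adjusted p = 0.0595). The log2 ratio of *Spry4* to *Spred1* was −0.62 ± 0.18 and −1.42 ± 0.26, a difference of −0.80 (SD, n = 5 each; exact permutation p = 0.00794, adjusted p = 0.0595). For *Spry2* to *Spry4* the difference was 0.60 (exact permutation p = 0.0159, adjusted p = 0.0794), and for *Spry4* to *Spred2* it was −0.56 (exact permutation p = 0.0556, adjusted p = 0.208). No pair therefore passed after adjustment, and with the smallest p that 5 against 5 hearts allow, 2 pairs alone could not have done so.

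**Figure D3:**
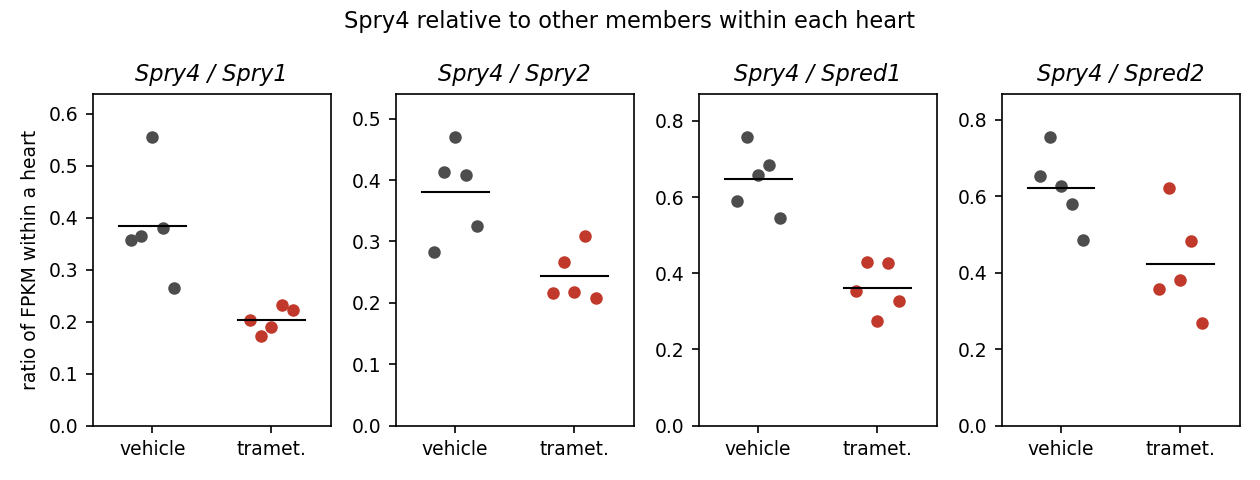
Ratio of *Spry4* FPKM to that of *Spry1*, *Spry2*, *Spred1* and *Spred2* within each heart (vertical axes from 0; grey, vehicle; red, trametinib; bars, group means). The groups did not overlap for *Spry1* (lowest vehicle ratio 0.265, highest trametinib ratio 0.232) or *Spred1* (0.545 and 0.431), and they did for *Spry2* and *Spred2*.

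Within groups, some members varied together from heart to heart. After removal of the group means, *Spry2* and *Spred2* had a Pearson r of 0.86 over the 10 hearts (exact permutation within groups, p = 0.00431, adjusted p = 0.0323 over 15 pairs) and a Spearman rho of 0.88 (exact permutation p = 0.00139, adjusted p = 0.0208). *Spred1* and *Spred2* had r = 0.84 (exact permutation p = 0.00285, adjusted p = 0.0323) and rho = 0.85 (exact permutation p = 0.00757, adjusted p = 0.0568). Each pair was also taken without the 2 hearts farthest from the median of its first-named gene. For *Spry2* and *Spred2* these were vehicle heart 5 and trametinib heart 5, and r was 0.81. For *Spred1* and *Spred2* they were vehicle heart 1 and trametinib heart 2, and r was 0.61. Neither passed over the 15 pairs, each over its own 8 hearts (exact permutation, adjusted p = 0.385 for both). As different hearts were left out for the 2 pairs, these r do not show which relation is the sturdier. Without vehicle heart 1, r was 0.84 and 0.74 (exact permutation, adjusted p = 0.122 for both). *Spry4* correlated with no other member past the threshold. Its highest r was 0.61 with *Spred1* (exact permutation p = 0.105, adjusted p = 0.392), with a rho of 0.38 (exact permutation p = 0.321, adjusted p = 0.869). Without vehicle heart 1 and trametinib heart 4, the 2 farthest from the median of *Spry4*, this r was 0.00688.

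**Figure D4:**
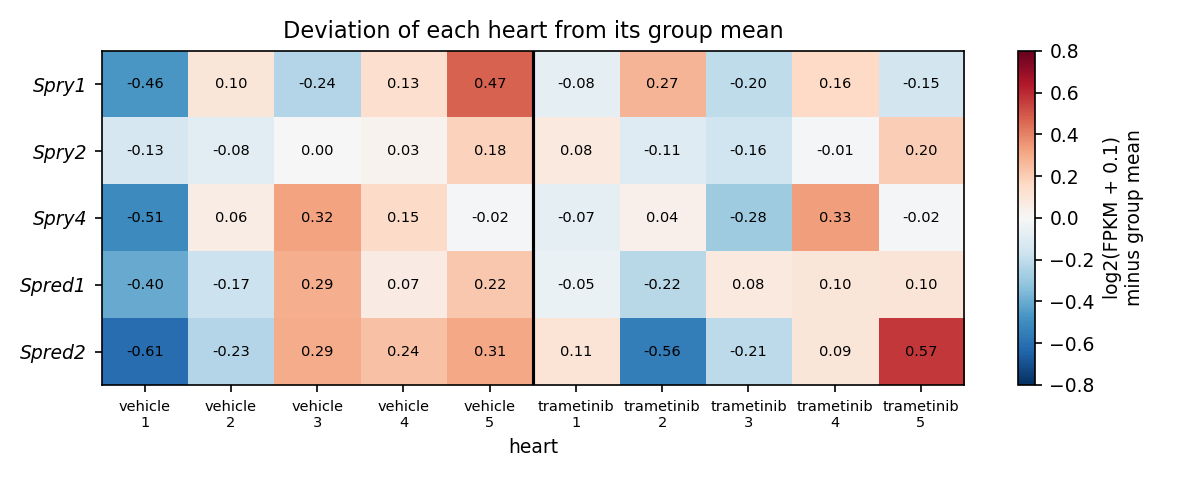
Deviation of each heart (columns) from its group mean in log2(FPKM + 0.1) for the 5 members tested (rows), with red for higher and blue for lower values. Vehicle heart 1 was below its group mean for all 5 members (−0.13 to −0.61), and trametinib hearts 2 and 5 were at −0.56 and 0.57 for *Spred2*.

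The genes whose levels followed each member most closely over the 10 hearts were named by the highest Pearson r among 10704 genes averaging 1 FPKM or more. As all 10 hearts entered, likeness to *Spry2* and *Spry4* includes any difference between the groups. The highest of 10704 values of r over only 10 hearts can be high for unrelated genes too. These r were not tested against chance. *Spry4* was followed most closely by *C7*, which encodes a complement component (r = 0.96), *Mon1b* (r = 0.95) and *Plekhm1* (r = 0.93). *C7* averaged 2.81 ± 1.03 FPKM in vehicle and 0.596 ± 0.221 FPKM in trametinib hearts (SD, n = 5 each, log2 difference −2.06, limma adjusted p = 0.0614). *Spry2* was closest to *6030408B16Rik*, *Tmed8* and *Zfp623* (r = 0.94 each), of which *6030408B16Rik* had a log2 difference of −1.44 between the groups (n = 5 each, limma adjusted p = 0.0830). Among the genes closest to *Spry1* were *Osbpl5* (r = 0.90) and *Mall* (r = 0.88). *Spred1* was closest to *Akt2-ps* (r = 0.97), *Nxt2* (r = 0.97) and *Itsn2*, which encodes an endocytic scaffold (r = 0.96). *Spred2* was closest to *Wdr48* (r = 0.94), *Dusp3*, a dual-specificity phosphatase gene (r = 0.94), and *Mtmr2* (r = 0.93). No gene was shared between these lists.

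Beside the members, 19 other genes that ERK induces or that feed back on it were examined, of which 17 passed the filter. Of these 11 were lower and 6 higher with trametinib, with a median log2 difference of −0.21, and none passed over all genes (limma). At an unadjusted p under 0.05, 5 of the 17 were lower, against 3.94% of all genes, and 1 was higher, against 3.67%. The list was chosen with earlier results of these data known, and the paper had already reported *Errfi1* as lower in the treated hearts. These shares are therefore no test of the list. *Errfi1*, an inhibitor of ERBB receptors, averaged 3.58 ± 0.693 FPKM in vehicle and 2.27 ± 0.218 FPKM in trametinib hearts (SD, n = 5 each, log2 difference −0.62, limma adjusted p = 0.289) and was the only one of the 17 whose groups did not overlap, as was so in the lower direction for 0.849% of all genes. *Egr1*, an immediate early transcription factor, was at 4.54 ± 2.32 and 1.99 ± 0.773 FPKM (SD, n = 5 each, log2 difference −1.08, limma adjusted p = 0.478). The receptor *Epha2* and the ERK phosphatase *Dusp7* differed by −0.48 and −0.38 on the log2 scale (limma adjusted p = 0.548 and 0.552). *Ccnd1*, named after its values were seen as the fifth gene of this count, differed by −0.39, and *Epha4* by 0.39 (limma adjusted p = 0.637 and 0.584). *Dusp6*, the phosphatase most closely tied to ERK output, had a log2 difference of −0.37 and *Etv5* of −0.21 (limma adjusted p = 0.684 and 0.808). *Etv4* was under the filter, at 0.428 ± 0.202 and 0.224 ± 0.0491 FPKM with at most 34 fragments in a heart (SD, n = 5 each, exact permutation p = 0.0317). The log2 difference of *Spry4* was thus larger than that of *Errfi1* and *Dusp6* and smaller than that of *Egr1*, and these differences were not tested against each other.

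The 20 genes of the RAS-RAF-MEK-ERK core all passed the filter, 8 lower and 12 higher, with a median log2 difference of 0.04 and no call over all genes. At an unadjusted p under 0.05, 1 of the 20 was lower, against 3.94% of all genes, and 3 were higher, against 3.67%. *Rit1*, the gene that carries the variant in all hearts, ranged from 12.8 to 16.4 FPKM with vehicle and from 16.0 to 22.5 FPKM with trametinib (n = 5 each, log2 difference 0.37, SE 0.11, limma adjusted p = 0.445), and the table does not separate its alleles. The adaptor genes *Gab1* and *Grb2* differed by 0.27 and 0.20 (limma adjusted p = 0.517 and 0.649), *Nras* by −0.22 (limma adjusted p = 0.563) and the kinase gene *Araf* by 0.14 (limma adjusted p = 0.755). The groups of *Nras*, 1 of the 20, did not overlap, as was so in the lower direction for 0.849% of all genes.

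Of 14 genes for partners and regulators of the Sprouty and Spred proteins, 13 passed the filter, with 8 lower and 5 higher, a median log2 difference of −0.01, and none at an unadjusted p under 0.05. *Nf1*, the partner of the Spred proteins, differed by −0.24, *Cbl*, which targets Sprouty proteins, by 0.07, and *Tesk1*, a kinase that binds Sprouty proteins, by 0.14 (limma adjusted p = 0.757, 0.934 and 0.931). *Rasa1*, another RAS GTPase-activating protein gene, differed by 0.20 (limma adjusted p = 0.653), *Nedd4* by 0.16 and *Siah2* by −0.14. *Spry3*, the remaining Sprouty gene, had at most 3 fragments in a heart. Of 14 receptor genes upstream, 8 passed the filter, 6 lower and 2 higher (median −0.12), and again none reached an unadjusted p of 0.05. The vascular receptor *Kdr* differed by −0.27 (limma adjusted p = 0.652), *Pdgfrb* by −0.28, *Flt1* by −0.18, *Fgfr1* by −0.14 and *Igf1r* by 0.12.

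**Figure D5:**
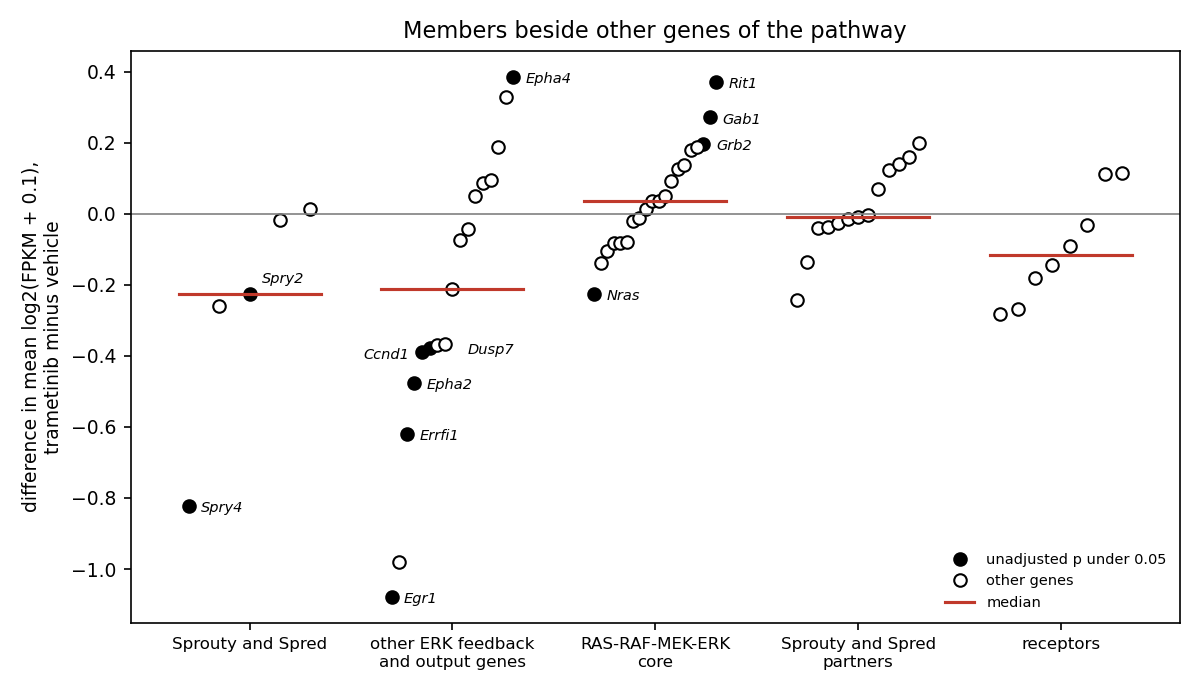
Log2 difference, trametinib minus vehicle, of each gene past the filter in the Sprouty and Spred families and in 4 lists of related genes (filled points, unadjusted p under 0.05; red lines, medians). The medians were −0.22 for the members, −0.21 for other ERK feedback and output genes, 0.04 for the core, −0.01 for partners and −0.12 for receptors.

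Markers of several cell types were mostly lower with trametinib, as *Spry4* and *Spry2* were, where 47.9% of all genes were lower. No marker of the cell types below passed over all genes (limma). At an unadjusted p under 0.05, 1 macrophage marker was lower and no endothelial, smooth muscle or atrial marker was (limma). All 5 macrophage markers were lower with trametinib (median log2 difference −0.35), and their summed level was 96.7 to 177.7 FPKM in vehicle and 96.5 to 116.3 FPKM in trametinib hearts. Of 6 endothelial markers 5 were lower (median −0.11), with sums of 114.2 to 194.0 and 116.1 to 146.5 FPKM, and of 5 smooth muscle and pericyte markers past the filter 4 were lower (median −0.28), with sums of 142.1 to 204.6 and 149.8 to 167.5 FPKM. Of 4 atrial cardiomyocyte markers tested all 4 were lower (median −2.32), with sums of 180.8 to 2136 and 125.4 to 1075 FPKM. Their SE ran from 0.545 (*Nppa*) to 2.15 (*Sln*), and none passed over all genes (limma adjusted p from 0.781 to 0.901). Fibroblast markers were 2 lower and 3 higher, cardiomyocyte markers 2 lower and 4 higher, and adipocyte markers 1 lower and 2 higher. No marker of these lists was at 0 in all hearts, the groups' sums overlapped in each list, and the part of these cell types in the difference of *Spry4* was not tested.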

How the data were processed

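Messenger RNA was selected with poly-T beads from total RNA of 10 hearts and sequenced, and the authors deposited 1 table of FPKM. In it, fragments are divided by gene length and by a divisor for each heart. The divisor recovered from the values was not the total of gene-assigned fragments. It was 1.42e+07 in vehicle heart 3, with 15371692 such fragments, and 1.71e+07 in trametinib heart 1, with 16256252. What sets it was not tested. The deposited gene length in bases and the coordinates were used as given. Chromosome, start and end were identical in GENCODE M21 (GRCm38) for 98.3% of the 54409 identifiers found there, though not for *Spry4*. The submitters' processing notes list fastp, STAR 2.5, HTSeq 0.6.1 and mm10 without their roles. All 10 columns were mapped to hearts by their labels. In every heart 100% of the products of FPKM and length were multiples of what 1 fragment is worth (tolerance 0.01 fragment), and the recovered fragments served for depth, for the limit of 3 fragments and for one alternative. Limits cover counting error only. The labels call the samples biological replicates and number them.

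The groups were compared on log2(FPKM + 0.1) by limma (version 3.58.1, R 4.3.3, eBayes with a mean-variance trend), two-sided, over the 12602 genes averaging 0.5 FPKM or more, with Benjamini-Hochberg adjustment. Intervals are 95%. Single genes and ratios were compared by two-sided exact permutation over all 252 assignments of 10 hearts to groups of 5, neighbours in level over 1024 sign flips, and correlations over 14400 orders within groups, in Python 3.11.15. Scripts were tested on simulated data. The paper states no test for these libraries.

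The members and the gene lists were chosen with earlier results of these data known. Named are the members, up to 5 genes of each pathway list with the smallest unadjusted p, *Dusp6*, *Etv4*, *Etv5*, *Nf1*, *Cbl*, *Tesk1*, *Rit1* and *Spry3* in any case, the 3 genes most like each member, overlapping genes, *Xist*, *Ddx3y* and markers. Some genes that this choice names are not reported here. Alternatives were pseudocounts of 1 and 0.01, no filter, a mean of at least 1 FPKM, TPM scale, quantile normalization, eBayes without trend or robust, array weights, the replicate number as a block, X, Y and mitochondrial genes left out, voom, linear FPKM and each heart left out. Alternatives for the order of levels, leaving out hearts for the ratios, and leaving out vehicle heart 1 for the correlations were chosen after seeing the data.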

Additional observations from a re-analysis of the deposited data

Results flagged for a closer look

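The members and the summed levels of the pathway lists, the cell type markers and the X and Y linked genes were searched, group by group. The search was for a single heart standing apart from the other 4. Of 36 such sets 2 held one, where chance gives about 1.8. The summed endothelial markers were at 116.1 FPKM in trametinib heart 5, while the other trametinib hearts lay between 138.3 and 146.5 FPKM. That heart had the highest *Spry2*, *Spred1*, *Spred2* and *Spred3* of its group (6.83, 4.31, 5.28 and 0.338 FPKM) and a *Spry4* of 1.42 FPKM. The summed fibroblast markers were at 223.2 FPKM in vehicle heart 5, against 140.8 to 161.3 FPKM in the rest of its group. That heart had the highest *Spry1*, *Spry2*, *Spred2* and *Spred3* of its group (9.72, 7.93, 5.30 and 0.243 FPKM). The part of these cell types in the members' values was not tested. No heart of either group stood apart in this way for any of the 6 members, and sums of the members were not searched.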

How the results depend on the processing

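The log2 differences of *Spry2*, *Spry4* and *Spred2* stayed negative under every alternative fit. *Spry4* ranged from −0.95 to −0.57, with limma adjusted p from 0.0434 to 0.464, and *Spry2* from −0.27 to −0.15. The count of members called over all genes was 0 in every fit but the one without vehicle replicate 1, where *Spry4* made it 1, so leaving out hearts gave 0 to 1. The count of all genes called was 10, and it was 9 with voom on the recovered fragments, 18 with array weights, 4 with the replicate number as a block and 0 (limma, 924 at an unadjusted p under 0.05) without genes of X, Y and the mitochondrial genome, a fit over fewer genes. Leaving out 1 heart at a time gave 5 to 13, and 5 came without vehicle replicate 2. Same-numbered hearts did not deviate together (r from −0.15 to −0.02), and the labels do not say whether the numbers pair hearts. With the block the log2 difference of *Spry4* was unchanged and its limma adjusted p was 0.464. *Spry1* reversed to −0.021 with array weights and lay between −0.10 and 0.13 with hearts left out, and *Spred1* reversed to 0.059 on the TPM scale and 0.016 with array weights and lay between −0.12 and 0.054. The TPM scale raised the median of all genes from 0.01 to 0.09. By exact permutation with hearts left out, p ran from 0.437 to 0.897 for *Spry1*, 0.0159 to 0.0635 for *Spry2*, 0.00794 to 0.0238 for *Spry4*, 0.325 to 1 for *Spred1* and 0.397 to 0.921 for *Spred3*, and on linear FPKM the *Spry1* difference reversed (p = 0.968). The correlations did not pass without the 2 hearts farthest from the median of the first-named gene, which differed between the pairs (r = 0.81 and 0.61). Nor did they pass without vehicle replicate 1 (r = 0.84 and 0.74). The cause of these shifts was not tested. The 4 ratio differences kept their direction and their adjusted p over 0.05 throughout, though the unadjusted p of *Spry4* to *Spred2* was 0.0317 with a pseudocount of 0.01, 0.0397 without vehicle replicate 5 and 0.0238 without trametinib replicate 2. The order of levels kept its direction and side of the threshold. With 78 to 214 fragments for *Spry4* and 2 to 33 for *Spred3*, counting error limits both.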
